A study of Arabidopsis thaliana with 9 samples.

Results

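The ATG genes encode the core machinery of autophagy, and 10 probe sets of the ATH1 array read 10 of them in Arabidopsis leaves: ATG3 and the 9 members of the ATG8 family, ATG8A to ATG8I. A probe set was taken if the platform annotation assigned it to a single gene with a symbol made of ATG or APG and a number, and if its signal reached 17.6 on at least 3 arrays. All 10 probe sets with such a symbol met the signal condition, out of 22810 on the array and 14151 that passed the same signal filter. ATG8A is annotated as APG8A (AT4G21980), and the probe set annotated as APG8H reads AT3G15580, which the RefSeq gene table also lists as ATG8I. It is called ATG8I here, since AT3G06420 carries the symbol ATG8H.

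The study profiled 3 leaf groups of 3 arrays each at growth stage 1.14: wild-type Col-0, and 2 lines of that background whose DEK1 locus, At1g55350, is knocked out by a T-DNA. One line carries a transgene labelled ADEK1 calpain and described as overexpressing, and the other a transgene labelled ADEK1 calpain null. The labels leave null unexplained, so the state of the calpain in that line is not known here. Both transgenic lines thus share the knock-out, which wild type lacks, so neither comparison with wild type separates the transgene from the knock-out. The annotation pairs no probe set with At1g55350, so its transcript is not analysed here. The labels give neither the promoter of the transgene nor how many independent lines were sampled. Plants had 3 days of cold, moved to soil after 7 days, and grew at 21 °C in short days with 6 to a pot.

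Autophagy delivers cytoplasm and organelles to the vacuole in double-membrane vesicles. ATG8 is a small ubiquitin-like protein that is attached to the lipid phosphatidylethanolamine on the growing membrane, where it also binds cargo receptors. The protease ATG4 trims ATG8, ATG7 activates it, and ATG3 is the conjugating enzyme that passes it to the lipid. Plants carry an enlarged ATG8 family, and in leaves the pathway recycles nutrients during starvation and senescence. DEK1 is the plant calpain, a calcium-dependent cysteine protease needed for epidermis formation.

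Arrays were on a common scale, with medians from 33.1 to 35.7, and the Rubisco activase transcript RCA, a leaf marker, had signals from 4629 to 6019. Of 9 listed leaf markers, 2 had a probe set; the other, the light-harvesting gene LHCB4.3, had a log2 fold change of 0.88 in calpain overexpressing leaves against wild type (limma adjusted p = 0.0753). With the arrays numbered 1 left out, LHCB4.3 rose in calpain overexpressing leaves, by 0.75 against wild type (adjusted p = 0.0374) and by 1.14 against calpain null (adjusted p = 0.0223), and its part in the ATG values of that fit was not tested. Of 11 listed markers of other tissues, the 1 with a probe set was the root gene PYK10, which ranged from 9.96 to 112, with 112 on calpain overexpressing array 3 and 63.9 on calpain null array 3 as its highest values. On the first principal component, which held 40% of the variance, wild-type arrays scored from -33.2 to -19.2. The calpain null array numbered 1 scored -9.62 and the calpain overexpressing array numbered 1 scored -9.37, while the other 4 transgenic arrays scored from 14.7 to 34.5. These 2 arrays also had the lowest 25S rRNA control signals, 167 and 160 against 208 to 384 on the other 7. Their 3′ to 5′ GAPDH ratios, a measure of RNA integrity, were 1.17 and 1.02, beside 1.03 to 1.20 on the other 7. The actin ratios were far from 1 on every array, from 12.3 to 16.7, with 12.6 and 13.8 on these 2. They set an _f_at probe set against an _r_at probe set, so their level is not read here as RNA integrity. The ATG comparisons below are therefore given with all 9 arrays and without the arrays numbered 1, and so are several of the other pathway genes.

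ATG3, the conjugating enzyme, had signals of 179, 164 and 145 on the wild-type arrays 1, 2 and 3. The calpain null arrays gave 189, 191 and 224, and the calpain overexpressing arrays 159, 205 and 189. All 3 calpain null arrays lay above every wild-type array, whereas the calpain overexpressing array 1 fell inside the wild-type range. The group means were 163 ± 17.0 in wild type, 201 ± 19.9 in calpain null and 184 ± 23.6 in calpain overexpressing leaves (SD, n = 3, as for all means given here).

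ATG8A, one of the ubiquitin-like ATG8 proteins, had wild-type signals of 108, 100.2 and 124. It had 128, 151 and 139 on the calpain null arrays and 104, 167 and 142 on the calpain overexpressing arrays. The calpain null arrays were all above wild type, and the calpain overexpressing arrays were split, with array 1 inside the wild-type range and arrays 2 and 3 above it. The wild-type mean was 111 ± 12.3, the calpain null mean 139.7 ± 11.5 and the calpain overexpressing mean 138 ± 31.5.

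ATG8B, another family member, was the nearest to the signal condition, which it met on 6 of 9 arrays; the other 9 probe sets met it on all 9. Its signals were 18.4, 16.8 and 27.2 in wild type, 9.19, 20.1 and 27.4 in calpain null and 16.3, 41.2 and 25.7 in calpain overexpressing leaves. The 3 groups overlapped, and the highest array was 4.49 times the lowest, against 1.55 to 2.14 times for the other 9 probe sets. No probe set with an ATG or APG symbol lay outside the condition.

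ATG8C, of the same family, had signals of 156, 144 and 134 in wild type. The calpain null arrays gave 149, 205 and 207, and the calpain overexpressing arrays 169, 233 and 209. Every calpain overexpressing array lay above every wild-type array, while the calpain null array 1 lay among them. Means were 145 ± 10.9, 187 ± 32.7 and 204 ± 32.2 in the order wild type, calpain null, calpain overexpressing.

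ATG8D had 46.2, 40.1 and 44.6 in wild type, 49.5, 49.3 and 56.1 in calpain null and 47.9, 85.9 and 66.1 in calpain overexpressing leaves. Neither transgenic group overlapped wild type. The 3 calpain null arrays were close together, at 51.6 ± 3.90, whereas the calpain overexpressing arrays spread over 66.6 ± 19.0; wild type had 43.6 ± 3.19.

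ATG8E did not separate the genotypes. It had 111, 98.8 and 88.6 in wild type, 87.5, 109 and 129.6 in calpain null and 72.0, 130.5 and 110.1 in calpain overexpressing leaves. The array numbered 1 was the lowest of its group in both transgenic lines and lay below every wild-type array. The group means differed by less than the spread between arrays, at 99.4 ± 11.1, 109 ± 21.1 and 104 ± 29.7.

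ATG8F showed the tightest wild-type arrays beside ATG8I, with signals of 345, 349 and 372. Its calpain null signals were 416, 536 and 582, all above wild type. The calpain overexpressing arrays gave 361, 625 and 561, of which array 1 lay inside the wild-type range. The mean was 355 ± 14.3 in wild type, 511 ± 86.0 in the calpain null line and 516 ± 137 in the calpain overexpressing line.

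ATG8G had 31.9, 31.2 and 24.3 in wild type, 36.3, 28.7 and 37.3 in calpain null and 37.6, 40.7 and 36.8 in calpain overexpressing leaves. The calpain overexpressing arrays all lay above wild type and were close to each other, at 38.4 ± 2.04 against 29.1 ± 4.25. Unlike most of the family, its calpain overexpressing array 1 was not the lowest of the group.

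ATG8H and ATG8I form the branch of the family whose proteins end in the glycine that is joined to the lipid, without the extension that ATG4 removes from the others. ATG8H had 34.0, 43.6 and 49.8 in wild type, 32.2, 57.5 and 49.7 in calpain null and 41.9, 46.8 and 63.1 in calpain overexpressing leaves, and the groups overlapped. ATG8I had 278, 300.1 and 289 in wild type, 318, 424 and 418 in calpain null and 299, 469 and 448 in calpain overexpressing leaves. For ATG8I the calpain null arrays stood apart from wild type, and the calpain overexpressing array 1 lay among the wild-type arrays. Its means were 289 ± 11.0, 387 ± 59.3 and 405 ± 92.9.

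**Figure D1:**
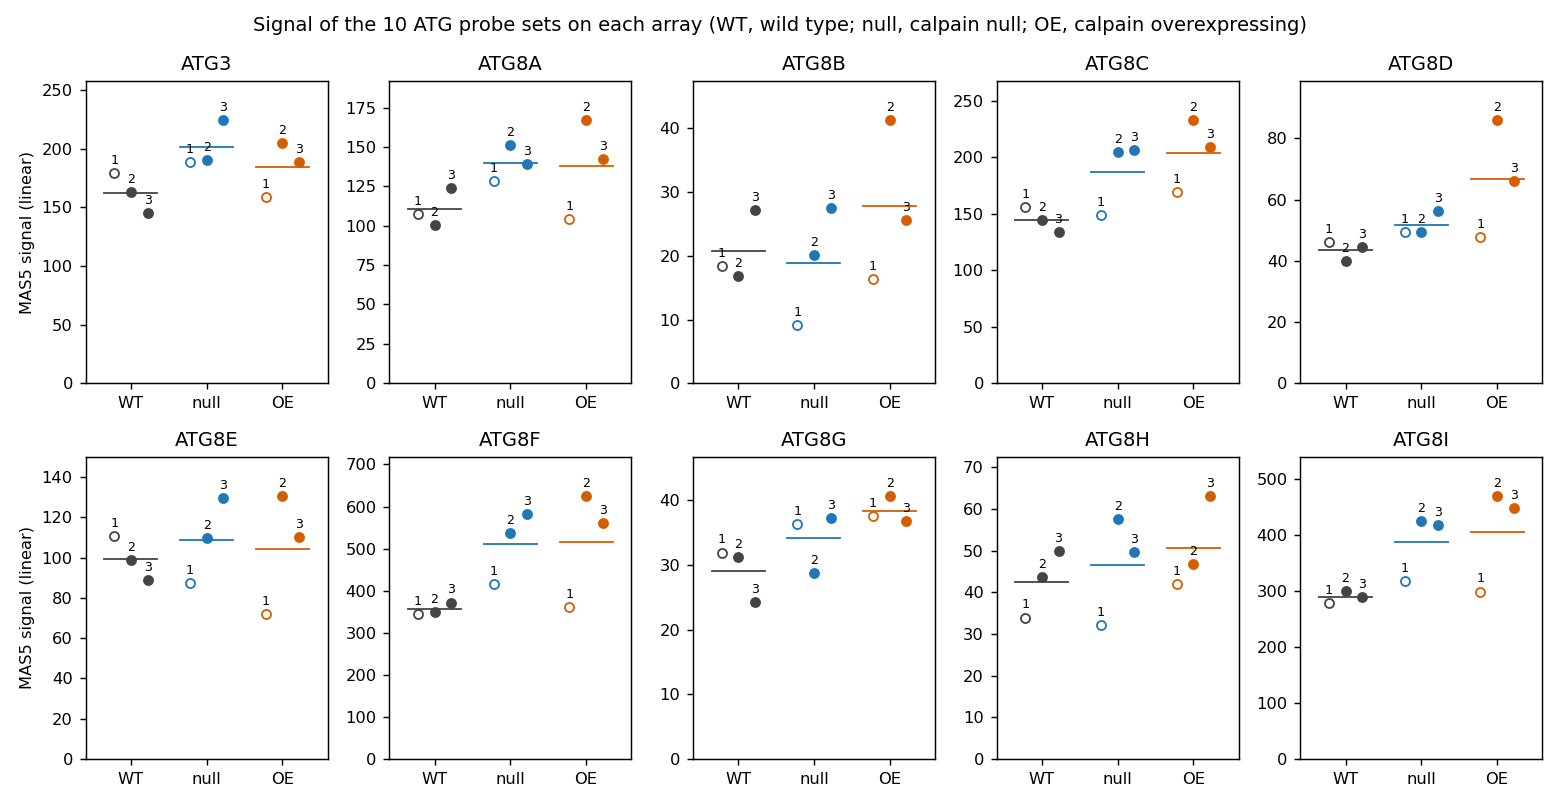
MAS5 signal (linear axis from 0) of the 10 ATG probe sets on each array, with 1 point per array marked by its replicate number, open for number 1, and a line at the mean of each group of 3. For ATG8C, ATG8F and ATG8I, arrays 2 and 3 of both transgenic lines lie above all wild-type arrays, while array 1 of the calpain overexpressing line lies at 169, 361 and 299.

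Setting the calpain overexpressing line against wild type asks whether ATG transcripts are altered where the calpain is labelled as overexpressed. All 10 probe sets had a higher mean in calpain overexpressing leaves, with log2 fold changes from 0.031 for ATG8E to 0.54 for ATG8D, beside 50.9% of all probe sets with a higher mean. The median was 0.34, beside a median of 0.0059 over all 14151 probe sets tested. Of the 10 probe sets, 9 read genes of the ATG8 family, and all were read on the same arrays. Counts out of 10, here and below, are therefore not counts of independent outcomes. None of the 10 was called by limma at a Benjamini-Hochberg adjusted p under 0.05, where 0.806% of all probe sets were called higher, and 4 had an unadjusted p under 0.05, beside 9.31% of all probe sets in that direction. In a bulk leaf sample, more cells with a transcript and more transcript per cell cannot be told apart.

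The 4 were ATG8C, ATG8D, ATG8I and ATG8F. The log2 fold change was 0.47 for ATG8C (SE 0.16, adjusted p = 0.146) and 0.54 for ATG8D (SE 0.19, adjusted p = 0.161). ATG8I followed with 0.46 (SE 0.17, adjusted p = 0.191) and ATG8F with 0.50 (SE 0.19, adjusted p = 0.195). On the fold scale these were between 1.37 times for ATG8I and 1.45 times for ATG8D. The groups did not overlap for 3 of 10 probe sets, ATG8C, ATG8D and ATG8G, beside 12.1% of all probe sets that were apart in that direction.

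ATG8G had a log2 fold change of 0.36 (adjusted p = 0.281), ATG8A one of 0.29 (adjusted p = 0.37) and ATG8B one of 0.31 (adjusted p = 0.684). The conjugating enzyme gene ATG3 had 0.17 (adjusted p = 0.512) and ATG8H 0.23 (adjusted p = 0.613). All estimates thus lay above 0, but given the spread between arrays no single difference passed the test. The interval was widest for ATG8B, from -0.48 to 1.09. With single arrays left out, the log2 fold change ran from 0.0080 to 0.59 for ATG8B, from 0.14 to 0.47 for ATG8A, from 0.071 to 0.35 for ATG8H and from 0.094 to 0.28 for ATG3.

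The same question was put to the calpain null line, in a comparison that shares the wild-type arrays with the one above. Of the 10 probe sets, 9 had a higher mean, beside 52.1% of all probe sets, and ATG8B a lower one, with a median log2 fold change of 0.26 beside 0.013 over all probe sets. None was called by limma, where 0.0495% of all probe sets were called higher, and 4 had an unadjusted p under 0.05, beside 9.53% of all in that direction. The log2 fold change was 0.51 for ATG8F (SE 0.19, adjusted p = 0.202) and 0.40 for ATG8I (SE 0.17, adjusted p = 0.252). ATG3 had 0.30 (SE 0.13, adjusted p = 0.267) and ATG8C 0.35 (SE 0.16, adjusted p = 0.275).

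The calpain null arrays were all above wild type for 5 of 10 probe sets, ATG3, ATG8A, ATG8D, ATG8F and ATG8I, beside 13.0% of all probe sets in that direction. ATG8A had a log2 fold change of 0.33 (adjusted p = 0.324) and ATG8D one of 0.23 (adjusted p = 0.552). ATG8G, ATG8E and ATG8H had 0.21, 0.11 and 0.100, and ATG8B -0.18, with adjusted p between 0.552 and 0.853. ATG8D was the 1 probe set apart from wild type in both lines, narrowly so on calpain overexpressing array 1, with 47.9 beside 46.2 on wild-type array 1. The share of all probe sets apart in both lines was not counted.

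The direct comparison of both transgenic lines asks whether the ATG transcripts differ between the lines as labelled. Of the 10 probe sets, 6 had a higher and 4 a lower mean in calpain overexpressing leaves, beside 48.6% of all probe sets with a higher one, with log2 fold changes from -0.13 for ATG3 to 0.49 for ATG8B and a median of 0.088. The split and the median depended on single arrays: without calpain null array 1 the median was -0.087 with 3 of 10 higher, and without calpain overexpressing array 1 it was 0.24 with 9 higher. It was -0.021 with 5 higher without calpain overexpressing array 2, and -0.031 with 4 higher without array 3. None was called by limma, where 0.523% of all probe sets were called in either direction, none had an unadjusted p under 0.05, beside 10.6% of all, and the groups overlapped for all 10, beside 13.9% of all probe sets with groups apart. ATG8F, the gene with the largest difference from wild type in the calpain null line, had -0.012 between the lines, with a 95% interval from -0.42 to 0.40. For ATG8I the difference was 0.052, with an interval from -0.32 to 0.42. ATG8D, with 85.9 and 66.1 on calpain overexpressing arrays 2 and 3, had 0.31 (interval -0.093 to 0.72, adjusted p = 0.624). The differences of ATG8F from wild type had 95% intervals from 0.088 to 0.90 in the calpain overexpressing line and from 0.099 to 0.91 in the calpain null line. The intervals all come from the same arrays, and the difference between the lines follows from those with wild type. The interval between the lines, from -0.42 to 0.40, is as wide as these. Setting the intervals side by side thus does not show whether the lines were alike and apart from wild type. A p that misses the threshold does not show that the lines were alike.

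A moderated F-test over the 3 genotypes also called none of the 10, beside 1.16% of all probe sets, and 4 had an unadjusted p under 0.05, beside 19.4% of all. Its smallest adjusted p values were 0.201 for ATG8C, 0.207 for ATG8F, 0.231 for ATG8I and 0.237 for ATG8D.

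**Figure D2:**
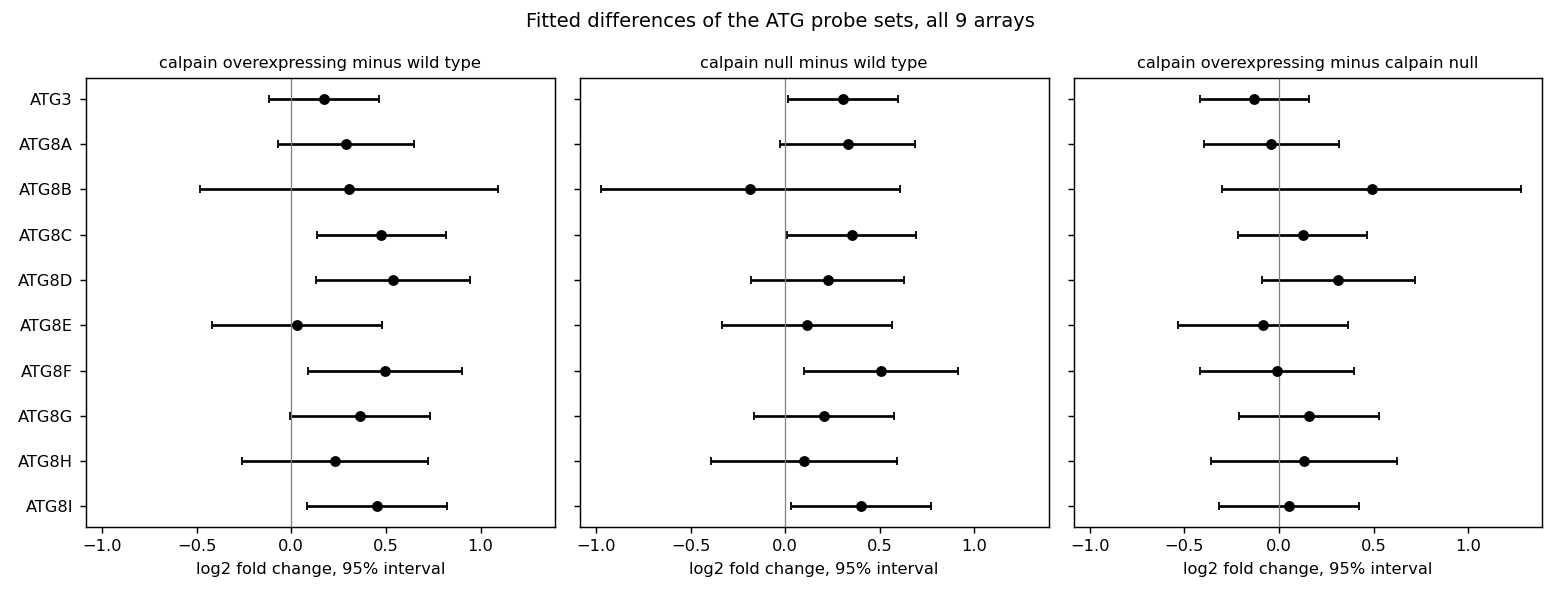
Fitted log2 fold changes of the 10 ATG probe sets (points) with their 95% intervals (bars) in the 3 comparisons, from all 9 arrays. Against wild type nearly all points lie to the right of 0, and between the transgenic lines they lie on both sides, from -0.13 for ATG3 to 0.49 for ATG8B.

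Within each transgenic line, most of the 10 probe sets were lowest on the same array. Relative to the wild-type mean on the log2 scale, the median of the 10 probe sets was 0.15 on calpain null array 1, 0.33 on array 2 and 0.37 on array 3. On the calpain overexpressing arrays it was 0.011, 0.63 and 0.44, while the median over all tested probe sets stayed between 0.00096 and 0.025 on these 6 arrays. Calpain overexpressing array 2 was the highest of the 9 arrays for 8 of 10 probe sets, beside 10.3% of all tested probe sets; the exceptions were ATG3, highest on calpain null array 3, and ATG8H, highest on calpain overexpressing array 3.

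Signals above every wild-type array were seen for 9 of 10 probe sets on calpain overexpressing array 2 and 8 on array 3, beside 35.2% and 34.8% of all tested probe sets. On calpain null arrays 2 and 3 they were seen for 7 and 9 of 10, beside 32.45% and 36.2%. The arrays numbered 1 gave 3 of 10 in the calpain overexpressing line and 6 of 10 in the calpain null line, beside 26.7% and 32.6%. Array 1 was the lowest of its group for 9 of 10 probe sets in the calpain overexpressing line, all but ATG8G, and for 8 of 10 in the calpain null line, all but ATG8D and ATG8G. The corresponding shares over all tested probe sets were 39.5% and 36.7%, and in wild type array 1 was the lowest for 3 of 10, beside 35.1%.

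The ratio of calpain overexpressing array 2 to array 1 was 1.73 for ATG8F, 1.81 for ATG8E, 1.79 for ATG8D and 2.53 for ATG8B, and 1.08 for ATG8G. Within wild type, the SD on the log2 scale ranged from 0.054 for ATG8I and 0.057 for ATG8F to 0.31 for ATG8B. The same 2 genes had SDs of 0.35 and 0.42 among calpain overexpressing arrays. The lower 25S rRNA signals and the first component scores nearer wild type, given above, were those of the transgenic arrays numbered 1. Wild-type array 1 had a 25S rRNA signal of 315, the highest of its group. Its score of -33.2 was the lowest of its group, beside -19.2 and -20.7. Array 1 thus had the lowest score within every group, wild type included. The part of these measures in the ATG values was not tested.

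**Figure D3:**
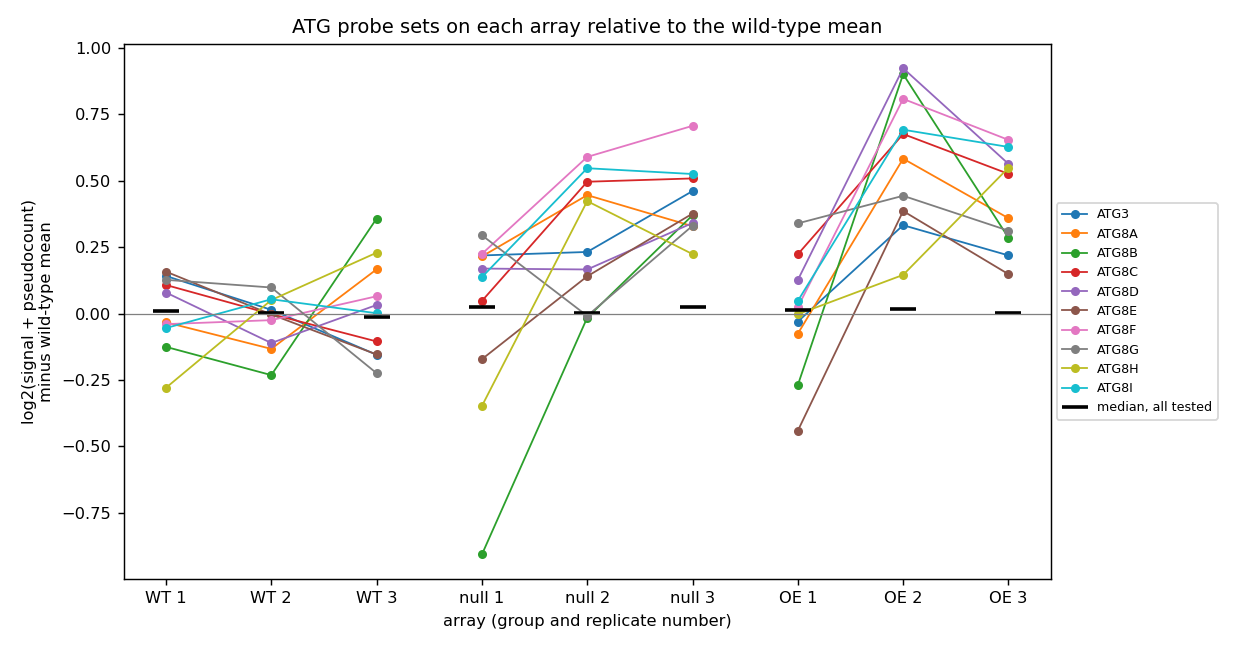
Difference of each ATG probe set from its own wild-type mean on each array, as log2(signal + 3.63), with black bars for the median of all tested probe sets. Lines join the arrays of 1 group for the same probe set and imply no order; the median of the 10 ATG probe sets is highest on calpain overexpressing array 2, at 0.63, and is 0.011 on calpain overexpressing array 1.

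The arrays numbered 1 were left out of every group in a setting added with earlier results of these data known. In that fit 4 of 10 probe sets were called higher in calpain overexpressing leaves, beside 6.90% of all probe sets. The transgenic arrays left out were those nearest wild type on the first component, and most of the 10 probe sets were lowest on them. Larger differences from wild type were thus partly set by the choice of arrays, and the calls are no independent support. The log2 fold change was 0.71 for ATG8F (SE 0.10, adjusted p = 0.00289) and 0.63 for ATG8I (SE 0.092, adjusted p = 0.00336). ATG8C had 0.65 (SE 0.11, adjusted p = 0.00618) and ATG8D 0.78 (SE 0.18, adjusted p = 0.0208). All 10 had a higher mean, with a median of 0.49 beside 0.013 over all probe sets. Each group then held 2 arrays, and the fit had 3 residual degrees of freedom.

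In the same fit, with the same limit, 3 of 10 probe sets were called higher in calpain null leaves, beside 4.13% of all probe sets. They were ATG8F with a log2 fold change of 0.63 (adjusted p = 0.00901), ATG8I with 0.51 (adjusted p = 0.0141) and ATG8C with 0.56 (adjusted p = 0.0192). ATG3 had 0.42 (adjusted p = 0.0743) and ATG8D 0.29 (adjusted p = 0.35). Between the lines none was called, beside 2.64% of all probe sets called in either direction; ATG8D had the largest difference there, at 0.49 (adjusted p = 0.195). A rise past the threshold for ATG8D in one line only is not shown to differ between them.

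A single array decided the calls against wild type in the calpain overexpressing line. Leaving out only its array 1 gave 5 calls, ATG8F, ATG8I, ATG8D, ATG8C and ATG8A, with adjusted p from 0.00824 to 0.0482, beside 6.21% of all probe sets called higher. Down-weighting variable arrays gave the same 5 genes, with adjusted p from 0.00579 to 0.0373, beside 9.55%; the weights were 0.386 for calpain overexpressing array 1, 0.517 for calpain null array 1 and 0.733 for wild-type array 1, against 1.04 to 2.31 for the others. Both settings reduce the part of calpain overexpressing array 1, the lowest of its group for 9 of 10 probe sets. The larger differences were thus partly set by that choice, and the 5 calls are no independent support. For the calpain null line none of the 10 was called with any single array left out, or with array weights, beside 2.47% of all probe sets called higher there.

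**Figure D4:**
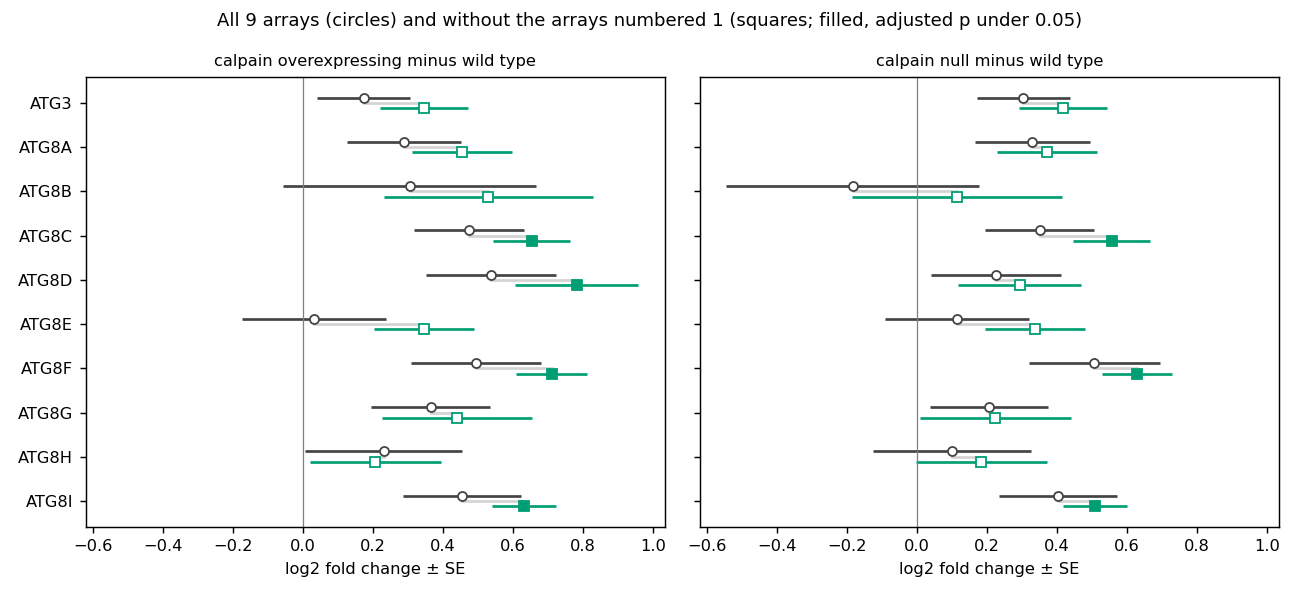
Log2 fold changes ± SE of the 10 ATG probe sets against wild type, from all 9 arrays (circles) and without the arrays numbered 1 (squares, filled where the adjusted p is under 0.05). Filled squares are ATG8C, ATG8D, ATG8F and ATG8I on the left and ATG8C, ATG8F and ATG8I on the right; no circle reaches the threshold.

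Other genes of the pathway were followed by locus. Of 39 loci listed as core autophagy genes, 10 are the genes above, 9 more had a single-gene probe set under another symbol and 20 had none that the annotation names. Those 9 loci had 11 probe sets, of which 8 passed the signal filter. None of the 8 was called in any comparison with all 9 arrays. Over all 14151 probe sets, 228 were called between calpain overexpressing and wild type, 8 between calpain null and wild type and 74 between the lines. With so few calls, none among 8 says little. The median log2 fold change of the 8 was 0.15 in calpain overexpressing and 0.21 in calpain null leaves against wild type, beside 0.0059 and 0.013 over all probe sets. AT3G18770 and both probe sets of AT1G77890 did not meet the signal condition.

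The core loci with the smallest F-test p were AT2G37840, AT3G61960 and AT1G49180, for which the tables used here give no name. AT3G61960 had 82.4, 70.4 and 50.9 in wild type, 89.7, 76.3 and 88.8 in calpain null and 86.4, 103 and 82.6 in calpain overexpressing leaves, the last group lying above wild type. Its log2 fold change was 0.42 (adjusted p = 0.224) in the calpain overexpressing line and 0.33 (adjusted p = 0.34) in the calpain null line. AT1G49180 had 0.55 (adjusted p = 0.219) and 0.21 (adjusted p = 0.653). Without the arrays numbered 1, AT3G61960 had 0.60 and 0.44 (adjusted p = 0.0648 and 0.19) and AT1G49180 had 0.68 and 0.38 (adjusted p = 0.111 and 0.408). One probe set of AT2G37840 had 0.20 and 0.42 (adjusted p = 0.525 and 0.207), and the other probe set of that locus had -0.051 and 0.051, so the 2 probe sets disagreed.

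ATG101, a subunit of the kinase complex that starts autophagosome formation, is named here after its values were seen. It had 57.5, 46.6 and 47.3 in wild type, 60.9, 64.8 and 52.8 in calpain null and 47.9, 78.1 and 80.4 in calpain overexpressing leaves. As with ATG8F and ATG8I, calpain overexpressing array 1 lay inside the wild-type range and arrays 2 and 3 above it. Its log2 fold change of 0.39 (adjusted p = 0.30) in calpain overexpressing leaves became 0.71 (adjusted p = 0.0183) without the arrays numbered 1. In calpain null leaves 0.22 (limma adjusted p = 0.563) became 0.30 (adjusted p = 0.277).

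Of 6 listed upstream regulators, 2 had a probe set. RAPTOR1 and RAPTOR2, which encode the substrate-binding subunit of the TOR kinase complex that restrains autophagy, had log2 fold changes of 0.074 and 0.044 in calpain overexpressing leaves and 0.13 and 0.22 in calpain null leaves. AT2G32760, the 1 of 3 loci measured from the list for the phosphatidylinositol 3-kinase complex, had -0.012 and 0.025. AT4G34660, the 1 of 7 loci measured from the list of cargo receptors and autophagosome-associated proteins, had -0.16 and 0.18. None of these 4 was called against wild type, with adjusted p from 0.566 to 0.972, nor without the arrays numbered 1, where RAPTOR1 had 0.095 and -0.096 and RAPTOR2 0.0028 and 0.13.

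Vacuolar processing enzymes are cysteine proteases that mature other enzymes in the vacuole, where autophagic cargo is broken down, and 3 of 5 listed vacuolar proteases had a probe set. GAMMA-VPE had 139, 165 and 186 in wild type, 218, 224 and 188 in calpain null and 144, 333 and 337 in calpain overexpressing leaves, so that calpain overexpressing array 1 again stood with wild type. All calpain null arrays lay above wild type, with a log2 fold change of 0.36 (limma adjusted p = 0.505), and 0.22 (adjusted p = 0.298) without the arrays numbered 1. The log2 fold change of GAMMA-VPE in calpain overexpressing leaves was 0.63 (adjusted p = 0.237), and 0.92 (adjusted p = 0.00207) without the arrays numbered 1. In that fit GAMMA-VPE also rose against the calpain null line, by 0.70 (adjusted p = 0.0216), where none of the ATG probe sets was called. BETA-VPE had 37.1, 33.1 and 40.5 in wild type, 53.5, 40.6 and 39.5 in calpain null and 48.0, 57.5 and 54.1 in calpain overexpressing leaves, with all calpain overexpressing arrays above wild type (log2 fold change 0.49, adjusted p = 0.143, and 0.56, adjusted p = 0.0634, without the arrays numbered 1). In calpain null leaves BETA-VPE had 0.24 (limma adjusted p = 0.452), and 0.12 (adjusted p = 0.729) without the arrays numbered 1. ALPHA-VPE did not meet the signal condition.

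**Figure D5:**
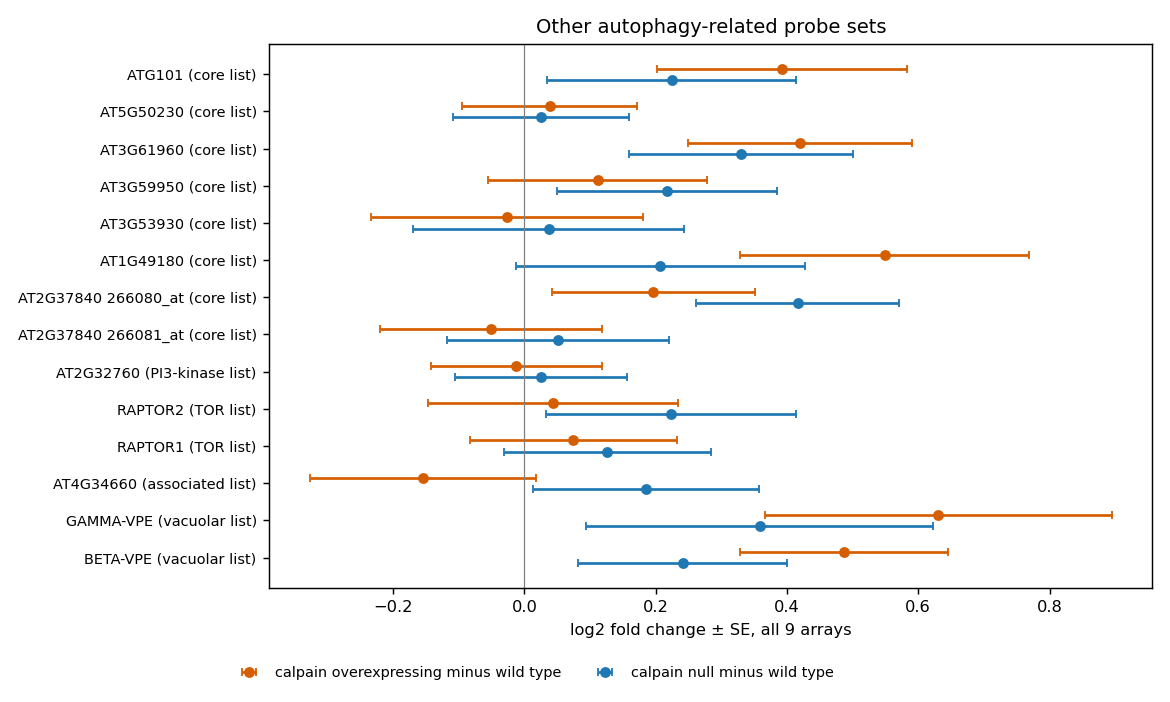
Log2 fold changes ± SE against wild type of 14 other autophagy-related probe sets, for the calpain overexpressing line (orange) and the calpain null line (blue), from all 9 arrays. GAMMA-VPE has the largest value, 0.63, in the calpain overexpressing line; no point passes the threshold.

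Markers of senescence and starvation, states in which leaf autophagy is known to rise, were covered by probe sets for 3 of 12 listed loci. SAG101, a senescence-associated gene, had 16.8 ± 3.05 in wild type, 29.3 ± 7.68 in calpain null and 18.8 ± 2.74 in calpain overexpressing leaves, with log2 fold changes of 0.67 (adjusted p = 0.176) and 0.14 (adjusted p = 0.785) against wild type. Without the arrays numbered 1 these were 0.89 (adjusted p = 0.0692) and 0.35 (adjusted p = 0.418). WRKY6, a senescence-related transcription factor gene, had 18.7 ± 1.00, 20.3 ± 5.69 and 11.8 ± 4.29 (log2 fold changes 0.065 and -0.57, adjusted p = 0.93 and 0.301), and without the arrays numbered 1 it had 0.25 and -0.60 (adjusted p = 0.671 and 0.242). WRKY53 did not meet the signal condition. The proteasome, the other main route of protein breakdown, was represented by RPN12a, with 467 ± 20.5, 461 ± 60.2 and 460 ± 14.5 and log2 fold changes of -0.024 and -0.022.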

How the data were processed

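Leaf RNA of 3 genotypes was profiled on 9 ATH1 arrays. The deposited intensity values are MAS5 signals made by the authors in GCOS, per the submitters' processing notes. The 2% trimmed mean was 100.01 on every array, so only changes relative to the rest of an array are visible. Depth is set by the number of arrays. Names come from the platform's annotation together with the TAIR10.1 RefSeq gene table, which paired all 10 members with a locus; 8794 probe sets have no listed gene. All 10 carry the suffix _at; cross-hybridisation among ATG8 copies was not tested.

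Signals were transformed as log2(signal + 3.63), the 20th percentile of the table, which understates changes of dim probe sets. Probe sets at 17.6, the 40th percentile, on 3 or more arrays were tested, leaving out 64 controls. limma 3.58.1 in R 4.3.3 fitted 3 group means to all 9 arrays with an intensity trend (6 residual degrees of freedom); p-values are two-sided and adjusted by Benjamini-Hochberg over 14151 probe sets, with a threshold of 0.05. The fit was tested on simulated data. Figures used matplotlib 3.10.9 in Python 3.11.15.

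All members are named, and from each other list any called probe set and the 3 with the smallest F-test p. The members and lists were chosen with earlier results of these data known. Replicate numbers come from the labels, which do not say whether replicates were separate plants, so p-values may measure technical spread. No 2 arrays were identical. Sequences were not analysed here. Alternatives covered pseudocount, filter, normalization, trend, array weights, 2-group fits, replicate block, probe set type and each array left out.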

Additional observations from a re-analysis of the deposited data

How the results depend on the processing

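The calls depended on which arrays entered the fit. For calpain overexpressing minus wild type, 0 of 10 ATG probe sets were called with all arrays, 0 to 5 with single arrays left out, 5 with array weights and 4 with the arrays numbered 1 left out. For calpain null minus wild type the counts were 0 to 0 with single arrays left out and 3 without the arrays numbered 1; between the lines they were 0 under every alternative run. The F-test gave 0 to 3 with single arrays left out, 4 with array weights and 4 with the arrays numbered 1 left out. All other alternatives gave 0. The cause was not tested.

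Of 30 fold changes, each with up to 21 alternatives, the direction turned in 28 cases, none of them called. Against wild type in the calpain overexpressing line, ATG8E ran from -0.15 to 0.27 with single arrays left out. In the calpain null line, ATG8B ran from -0.46 to 0.18 (0.11 without the arrays numbered 1), ATG8E from -0.016 to 0.26 and ATG8H from -0.062 to 0.32. Between the lines, ATG8A ran from -0.19 to 0.14, ATG8C from -0.027 to 0.25, ATG8E from -0.26 to 0.15, ATG8F from -0.17 to 0.22, ATG8H from -0.093 to 0.29 and ATG8I from -0.081 to 0.26. Array weights gave 0.099, 0.056 and 0.12 for ATG8A, ATG8E and ATG8F there, the fit without the arrays numbered 1 gave 0.084, 0.0089 and 0.083, and median centring gave 0.0021 for ATG8F.

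Of the values that kept their direction, single arrays left out moved ATG8D from 0.34 to 0.74, ATG8F from 0.34 to 0.73 and ATG8I from 0.34 to 0.66 in the calpain overexpressing line against wild type. In the calpain null line ATG8D ran from 0.17 to 0.26 and ATG8G from 0.093 to 0.31. Between the lines ATG3 ran from -0.21 to -0.028, ATG8B from 0.13 to 0.78, ATG8D from 0.12 to 0.52 and ATG8G from 0.052 to 0.22.

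With the replicate number as a block, 0 of 10 were called in each comparison. Against wild type the smallest limma adjusted p was then 0.0557 for ATG8I in the calpain overexpressing line, from 0.191 without the block. In the calpain null line it was 0.0707 for ATG8F, from 0.202. Calls over all probe sets moved from 228 to 770, from 8 to 461 and from 74 to 187. Over all alternatives those calls ran from 26 (without calpain overexpressing array 2) to 2663 (array weights), from 1 (without wild-type array 3) to 1122 (arrays numbered 1 left out) and from 24 (fit of both lines alone) to 373 (arrays numbered 1 left out), and those of the F-test, 164 with all arrays, from 35 (without wild-type array 3) to 2249 (array weights). Same-numbered arrays deviated together with a correlation over 0.1 in 3 of 9 pairs (range -0.13 to 0.37), and an array correlated best with its own number in 6 of 18 cases. The main fit therefore did not take the numbers as pairing. The highest correlations were between arrays numbered 1, at 0.37 for calpain null with calpain overexpressing and 0.32 for wild type with calpain overexpressing. Wild type with calpain null had -0.007 there. A factor shared by the arrays numbered 1 was not tested. ATG8B was not tested with the median signal as filter.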
